A study of Mus musculus with 49 samples.

Results

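ERV1 insertions are single annotated copies of class I endogenous retroviruses, the relatives of gammaretroviruses such as murine leukemia virus. An insertion was examined here if 25% or more of the kept embryos of the TBP experiment, that is 5 or more of 18, held 1 or more of its reads. This rule left 721 of 74992 annotated ERV1 insertions (0.961%), in 72 of 154 ERV1 families. It left 40760 of 3864699 transposable element (TE) insertions of all classes (1.05%). A full-length endogenous retrovirus has an internal region between a pair of long terminal repeats (LTRs), and transcription starts in the LTR at its 5′ end. Many copies are solitary LTRs. In mouse cells ERV1 elements are known as targets of KRAB zinc finger proteins with Trim28 and Setdb1, and of DNA methylation. TBP, the TATA-binding protein, is a general factor of transcription initiation.

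Single late 2-cell mouse embryos, from matings of C57BL/6J x CBA/H F1 females to F1 males, were sequenced with Smart-seq+5′, and only reads of transcript 5′ ends were counted. TBP loss of function (LOF) was made by Trim-Away, in which zygotes received a mouse monoclonal antibody against TBP and, 4 h later, mRNA of the ubiquitin ligase Trim21 fused to mCherry. CONTROL zygotes received mouse IgG and the same mRNA, so that both groups carried an antibody and Trim21, and all embryos were collected 48 h after hCG. The labels give 9 LOF and 10 CONTROL embryos. The methods of the study give the larger number to LOF, and the labels were followed here. Of the CONTROL embryos, CONTROL 7 had 464300 counted reads and was left out, which left 9 in each group. FOXJ3 LOF (16 embryos kept) and its rabbit IgG CONTROL (13 kept) served for comparison by family, as their single insertions were not analysed here. Each embryo is its own library. The study collected embryos in several independent experiments, but the sources used here do not say which TBP embryos were collected together. The main tests take the embryos as independent. The labels give all embryos as late 2-cell, cells were not counted here, and in whole embryos fewer cells and less RNA per cell cannot be told apart.

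Between 1160150 and 5434808 reads were counted per kept TBP embryo. Values are normalized counts, that is reads divided by the size factor of the embryo from its ERCC spike-in RNA, and log2 fold changes are LOF over CONTROL. LOF 7 and LOF 11 stood apart with 6.12% and 6.03% ERCC reads, against at most 4.62% in the other 16 embryos. Tbp mRNA was lower in LOF embryos, with 76.3 ± 50.3 normalized counts (SD, n = 9) against 335 ± 147 (SD, n = 9), or -2.14 on the log2 scale (edgeR, adjusted p = 0.00165). Trim-Away degrades the protein, which these counts do not measure. The study showed depletion of TBP by immunostaining, and it does not exclude leftover protein or a passing loss. Among 7 genes known for the late 2-cell stage, Tcstv3 was higher, Obox6 was lower, and Zscan4c, Zscan4d, Zfp352, Eif4e3 and Usp17lc did not pass the test, of which Zfp352, Eif4e3 and Usp17lc were higher with TMM, a scaling that takes most features to be unchanged. Of 10 genes of cumulus cells, Inha, Inhba, Has2, Ptx3 and Fshr had no reads, Tnfaip6 and Star were tested and did not pass, and the summed level of the list was 0 to 11.96 in LOF and 1.79 to 46.8 in CONTROL embryos. Reads on 7 Y-linked genes (at least 5 in total) were found in 8 of 9 CONTROL embryos and in 3 of 9 LOF embryos (LOF 1, 10 and 11). By edgeR all 7 genes were lower in LOF (median log2 fold change -3.40), beside 21% of all genes. With TMM, 3 of them were lower. Y-linked reads thus went in part with the group, and a fit with these reads as a covariate cannot fully separate both. The part of Y-linked reads in the results below was not tested beyond that fit.

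The members were thinly covered. They held 47756 reads over the 18 embryos, 77.2% of the 61854 reads on ERV1 insertions, with a median of 22 reads per insertion. Only 28 members had a read in all 18 embryos and 163 had one in exactly 5, the fewest that the rule allows. These 163 held 5 to 34 reads each (median 12), and the 226 insertions just outside the rule, with a read in exactly 4 embryos, held 4 to 28 (median 8). Reads were concentrated in few copies. The 10 most-read members held 31.6% of member reads, and MERV1_LTR_dup169 alone held 6829 reads, or 14.3%. Insertions are named by family and by copy, and their positions in the genome and their sequences were not analysed here.

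LTRs made up 445 of the members (58 families, 64.6% of reads) and internal regions 276 (14 families, 35.4% of reads). The ERV1 families with the most members were MMVL30-int with 91 and RLTR1B with 78. Grouped by name, VL30 elements (MMVL30-int and the RLTR6 names) had 152 members, RLTR1 had 122, MuRRS with its LTRIS repeats had 77, GLN had 56 and murine leukemia virus (MLV, with MuLV-int and the RLTR4 names) had 33. Of 992 annotated MMVL30-int copies 9.17% were members, whereas of 7100 MLTR14 copies 0.352% were.

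In the test of single insertions, 52 of 721 members were lower in LOF embryos, 14 were higher and 655 did not pass (edgeR's quasi-likelihood test, two-sided, Benjamini-Hochberg adjusted p under 0.05 over 59208 genes and insertions). This was 9.15% of members, beside 15.3% of all genes and insertions tested and 12.5% of all TE insertions. By direction, 7.21% of members were lower, beside 14.6% of all features and 11.6% of TE insertions, and 1.94% were higher, beside 0.76% and 0.844%. DESeq2 called 38 members lower and 4 higher, beside 15% and 0.546% of all features. DESeq2 gave no adjusted p for 266 of the 721 members, among them 14 of the 52 lower and 8 of the 14 higher calls of edgeR, so that its counts, here and by group, leave these members out. In the other LTR classes, 10.6% of 2599 ERVK insertions were lower and 0.885% higher, 8.20% and 1.57% of 4657 ERVL insertions, and 11.04% and 0.649% of 9702 ERVL-MaLR insertions. These differences between classes were not tested. Among insertions with at least 100 reads, 9 of 83 members were lower (10.8%) and 3 higher (3.61%), beside 14.7% and 1.18% of 9950 TE insertions. The median log2 fold change was -0.53 for the members and -0.69 for all features tested. With TMM, which centres the features near 0 by construction, the median over all features was -0.06, a shift of -0.62 between both scalings. With Y-linked reads as a covariate, 21 members were lower and 6 higher, beside 7.78% and 0.252% of all features (8.03% in all). With TMM, 25 members were lower and 22 higher, with a median of 0.003, beside 6.76% lower and 2.64% higher of all features (9.4% in all). Without LOF 7 and LOF 11, which have the highest ERCC shares, 27 of the same 721 members were lower and 12 higher, beside 8.97% and 0.787% of the same 59208 features (9.76% in all), and the medians were -0.31 for the members and -0.49 for all features. The exact permutation test called 3.61% of members lower and 0.971% higher, beside 11.3% and 0.301% of all features (11.6% in all).

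**Figure D1:**
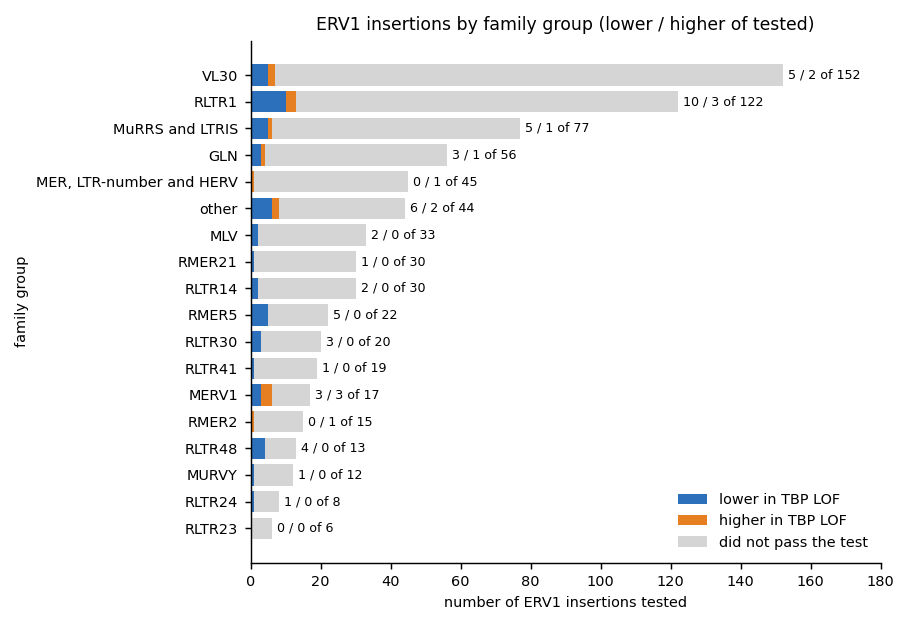
Number of ERV1 insertions tested per family group (x axis), split into those lower in TBP LOF embryos (blue), higher (orange) and not past the test (grey), with ERCC scaling. The largest groups, VL30 and RLTR1, had 7 of 152 (4.61%) and 13 of 122 (10.7%) members past the test. This stands beside 15.3% of all features and 12.5% of TE insertions. With TMM scaling, which moves all log2 fold changes up, the split over all 721 members was 25 lower and 22 higher in place of 52 and 14.

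The calls rest on few reads. Of the 66 members that passed, 43 had fewer than 30 reads in all, and in 27 of them every embryo of 1 group had 0 reads (17 with no read in LOF, 10 with no read in CONTROL). Such members reach the filter only through the group in which they are present, so their counts are a description. Of the 163 members with a read in exactly 5 embryos, 11 were lower and 7 higher. The other 39 had reads in both groups, 35 lower (median log2 fold change -3.25) and 4 higher. The 279 members with a read in at least 9 embryos accounted for 19 of the lower and 4 of the higher calls. The groups did not overlap in 2 members, RLTR48A_dup420 and MLTR14_dup5070, beside 2.71% of all features. By edgeR with both scalings, DESeq2 and an exact permutation test alike, 13 members were called, 9 lower and 4 higher, but only 3 of these had reads in at least 5 embryos of each group. For these 13 calls and the 10 that follow, the share of all features under the same condition was not computed. Nor was it computed for the calls above by number of reads or of embryos with a read. Of all 66 calls, 10 (8 lower and 2 higher) were among the 171 members with reads in at least 5 embryos of each group, which meet the rule in either group alone. Adjusted p-values are therefore given in the paragraphs on single copies only for such members, and other copies are described without a test.

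**Figure D2:**
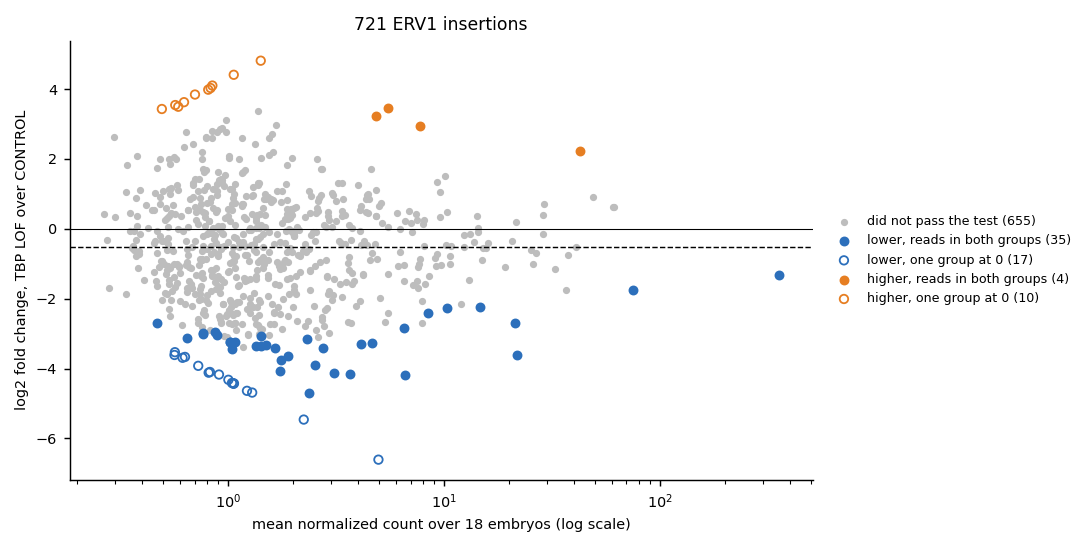
Mean normalized count over 18 embryos (x axis, log scale) and log2 fold change, TBP LOF over CONTROL (y axis), for the 721 ERV1 insertions, with ERCC scaling. Filled points passed the test with reads in both groups, open circles passed with 1 group at 0, and grey points did not pass. The dashed line is the median of the members, -0.53, which is 0.003 with TMM scaling.

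As a share of all counted reads, ERV1 families did not separate the groups. The share was 0.111% to 0.219% in LOF embryos (median 0.196%) and 0.156% to 0.252% in CONTROL embryos (median 0.193%), and the ranges overlapped. Summed over the 721 members, the normalized count was 880 to 3750 in LOF (median 2153) and 2264 to 3918 in CONTROL (median 3253). On this spike-in scale, 6 of 9 LOF embryos lay below every CONTROL embryo, and 8 lay below the CONTROL median. This count leans on 1 copy, MERV1_LTR_dup169. It gave 458 of the 2264 in CONTROL 3, the lowest CONTROL embryo. In LOF 1 it gave 117 of 2117, in LOF 5 233 of 2153 and in LOF 10 374 of 2247. Without this copy, these LOF embryos would not lie below CONTROL 3. Summed over all ERV1 families, the normalized count was 1108 to 5110 in LOF (median 3050) and 2845 to 5207 in CONTROL (median 4464). Of the family sums, 3 of 9 LOF embryos lay below every CONTROL embryo and 8 below the CONTROL median. Internal regions held 28.9% to 59.9% of member reads in LOF (median 38.4%) and 26.4% to 37.4% in CONTROL (median 31.7%), and 8 of 9 LOF embryos were above the CONTROL median. The summed level of internal regions was 854 ± 351 in LOF and 989 ± 253 in CONTROL (SD, n = 9 each), and that of LTRs 1229 ± 557 and 2064 ± 349. The LTR sum includes MERV1_LTR_dup169. Without MERV1_LTR_dup169, the internal share was 33.9% to 61.4% in LOF (median 44.0%) and 33.5% to 43.3% in CONTROL (median 37.6%). Members detected numbered 276 to 390 per LOF embryo (median 323) and 280 to 430 per CONTROL embryo (median 359). Thinned to the 1148892 reads of the shallowest embryo, the numbers were 185 to 360 (median 301) and 272 to 342 (median 307). These sums over the members and over the families were not tested.

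**Figure D3:**
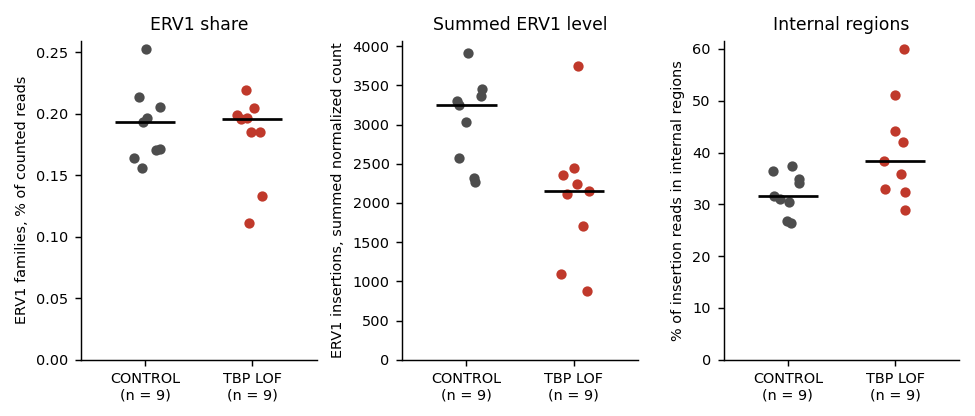
ERV1 families as % of counted reads (left), summed normalized count of the 721 ERV1 insertions with ERCC scaling (middle) and % of insertion reads in internal regions (right), 1 point per embryo and a line at the median, 9 CONTROL and 9 TBP LOF embryos. The shares at left, over all ERV1 families, overlap, with medians of 0.193% and 0.196%. In the middle panel, over the 721 members with MERV1_LTR_dup169 among them, 6 of 9 LOF embryos lie below all CONTROL embryos. Without that copy, fewer would. When all ERV1 families are summed on the same scale, 3 of 9 do.

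In the group paragraphs that follow, edgeR calls stand beside 14.6% lower and 0.76% higher of all features (6.76% and 2.64% with TMM). MERV1 had 17 members, of which edgeR called 3 lower and 3 higher, and the exact permutation test 0 higher. DESeq2 gave no adjusted p for the 3 higher copies. All but MERV1_LTR_dup169 of these 6 calls were copies with no read in 1 group. MERV1_LTR_dup169, the most abundant ERV1 insertion, had 41.4 to 387 normalized counts in LOF (median 161) and 361 to 767 in CONTROL (median 458). Only LOF 8 and LOF 10 reached the CONTROL range, and all 9 LOF embryos were below the CONTROL median. Its log2 fold change was -1.32 ± 0.35 (SE, n = 9 and 9, edgeR, adjusted p = 0.0125), and with TMM it was -0.67 (adjusted p = 0.187). Without LOF 7 and LOF 11 it was near the threshold (-1.20, adjusted p = 0.0475 over the same features and 0.0504 with the filter applied to 16 embryos), and it did not pass with Y-linked reads as a covariate (-1.28, adjusted p = 0.0741). This copy held 6829 of the 7078 member reads of the MERV1_LTR family, so that the family follows it. A further member, MERV1_LTR_dup547, went the other way with 11 reads in 6 LOF embryos and 0 in CONTROL, at least 2.48-fold higher when 3 reads are taken for the empty group. It met the rule through LOF embryos alone.

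RLTR1 had 122 members, 10 lower and 3 higher, and a median log2 fold change of -1.001 (-0.39 with TMM). RLTR1B_dup436 had 10.8 to 71.8 normalized counts in LOF (median 29.6) and 57.3 to 170 in CONTROL (median 124). The LOF embryos 5 and 6 overlapped the lowest CONTROL embryo, and all 9 were below the CONTROL median. It was lower, at -1.76 ± 0.38 (log2, SE, n = 9 and 9, edgeR, adjusted p = 0.00249), and -1.09 with TMM (adjusted p = 0.0582). RLTR1B_dup489, of the same family, had 24.3 to 179 in LOF (median 53.4) and 1.67 to 42.0 in CONTROL (median 14.1). All 9 LOF embryos were above the CONTROL median, and CONTROL 9 alone, at 42.0, reached into the LOF range. This copy was higher by 2.24 ± 0.52 (log2, SE, n = 9 and 9, edgeR, adjusted p = 0.00465), and by 2.72 with TMM (adjusted p = 0.00413). Among the 78 copies of the RLTR1B family, 6 were called lower (7.69%) and 3 higher (3.85%), beside 14.6% and 0.76% of all features. With TMM the counts were 3 and 3, and by the exact permutation test 4 and 2. The edgeR counts include RLTR1B_dup642, dup734 and dup125, which had reads in fewer than 5 embryos of 1 group.

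Other RLTR1 copies were near 0 in 1 group. RLTR1B_dup642 had no reads in LOF and 73 reads in 6 CONTROL embryos, 0 to 46.8 normalized counts (median 3.58), at least 35.9-fold lower in LOF. CONTROL 1 held the highest value. RLTR1B_dup734 had 3 reads in 2 LOF embryos and 36 reads in all 9 CONTROL embryos, a ratio of 17.7 (95% counting interval 5.601 to 90.0). RLTR1C_dup174 had 1 read in LOF and 40 in 5 CONTROL embryos, a ratio of 59.1 (10.01 to 2392). CONTROL 8 held 21 of these reads and CONTROL 10 held 14. Such intervals pool the reads of each group and leave out the spread between embryos. PCR copies of 1 molecule were not collapsed by molecular identifiers, so the intervals are also too narrow for a count of molecules. They describe copies chosen by adjusted p and are no test between the groups. RLTR1B_dup125 went the other way, with 0 to 22.5 in LOF (median 6.70) and 0 to 5.37 in CONTROL (median 0), with a log2 fold change of 3.46 ± 1.00 (SE, n = 9 and 9). It had reads in 8 LOF and 3 CONTROL embryos.

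VL30 elements, retrotransposons that encode no viral protein and can be packaged by MLV particles, had 152 members, 5 lower and 2 higher, or 1 lower and 2 higher with TMM. Their median log2 fold change was -0.54, or 0.02 with TMM. The 2 abundant VL30 copies named by level did not pass. MMVL30-int_dup943 had 3.65 to 61.5 in LOF (median 37.4) and 14.5 to 144 in CONTROL (median 29.2), with -0.52 (adjusted p = 0.565), or 0.15 with TMM. MMVL30-int_dup261 had 8.37 to 91.0 in LOF (median 17.3) and 2.02 to 106 in CONTROL (median 36.2), with -0.76 (adjusted p = 0.438), or 0.03 with TMM. Both groups overlapped along most of their range, and the sign of both copies turned with the scaling. MMVL30-int_dup537 had 0 to 26.9 in LOF (median 17.0) and 0 to 4.03 in CONTROL (median 1.34). Its high values lay in LOF 2, 5, 6, 8 and 9 (17.0 to 26.9), while LOF 1, 7, 10 and 11 had 0 to 6.09. It was higher by 2.93 ± 0.86 (log2, SE, n = 9 and 9, edgeR, adjusted p = 0.0200). Those 5 embryos were among the 6 LOF embryos with fewer than 5 Y-linked reads, and with these reads as a covariate the value was 0.82 (adjusted p = 0.717). LOF 7, the other of these 6, had 6.09. CONTROL 3, the only CONTROL embryo with fewer than 5 Y-linked reads, had 1.79. A part of Y-linked reads in the change was not tested beyond that fit.

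MLV elements had 33 members, 2 lower and 0 higher by edgeR (2 higher at an unadjusted p under 0.05, 0 by DESeq2 or permutation), with a median log2 fold change of -0.09 (0.30 with TMM). The copies called lower by edgeR, MuLV-int_dup75 and RLTR4_MM-int_dup40, had 0 reads in LOF and 16 and 15 in CONTROL. Both of these calls thus rest on copies that met the rule through CONTROL alone. DESeq2, which gave no adjusted p for 1 of these 2 copies, called 3 MLV members lower, and the exact permutation test 1. The GLN elements, named for a primer binding site that matches glutamine tRNA, had 56 members, 3 lower and 1 higher, with a median of -0.38 (0.13 with TMM). All 4 calls had at most 20 reads in a group.

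MuRRS, the murine retrovirus-related sequences, and the LTRIS repeats that flank them had 77 members, 5 lower and 1 higher, but 2 lower and 5 higher with TMM, and a median of -0.43 (0.15 with TMM). MuRRS-int_dup113 had 1.83 to 20.5 in LOF (median 7.89) and 0 to 3.30 in CONTROL (median 0). It was read in all 9 LOF embryos and in 4 CONTROL embryos, and every LOF embryo was above the CONTROL median. Its log2 fold change was 3.23 ± 0.87 (SE, n = 9 and 9), and 3.64 with TMM. LTRIS_Mm_dup333 had 1 read in LOF and 27 in 8 CONTROL embryos, a ratio of 39.9 (95% counting interval 6.57 to 1633). LOF 6 held its only LOF read.

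MURVY is a retrovirus repeated along the mouse Y chromosome. Its 12 members gave 1 lower call and a median of -0.19 (0.33 with TMM). Their summed level was 6.68 to 39.9 normalized counts in the 8 CONTROL embryos with at least 5 Y-linked reads and 10.7 in CONTROL 3, which had none. In LOF it was 6.94 to 18.7 in the 3 embryos with at least 5 Y-linked reads and 6.53 to 39.3 in the 6 with 0 to 1, so that the level of these copies did not separate the embryos by Y-linked reads. The member called lower, MURVY-int_dup15, had 19 reads in CONTROL and 2 in LOF (-3.34 ± 1.15, log2, SE), and 2 of its CONTROL reads and both LOF reads were in embryos with fewer than 5 Y-linked reads.

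RLTR48 had 13 members, 4 lower and 0 higher by edgeR (also 0 unadjusted and by DESeq2 or permutation), and 2 lower with TMM. RLTR48A_dup420 had 0 to 2.88 in LOF (median 0) and 4.03 to 31.3 in CONTROL (median 9.90). The groups did not overlap, and 5 of 9 LOF embryos had no read. Its log2 fold change was -4.19 ± 0.81 (SE, n = 9 and 9), and -3.23 with TMM. The more abundant RLTR48A_dup416 (83 reads in LOF, 359 in CONTROL) was lower, at -2.69 ± 0.82 (adjusted p = 0.0248), but not with TMM (-1.92, adjusted p = 0.134). RLTR48A_dup386 and RLTR48A_dup36 were the other lower copies.

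MLTR14, an LTR family with 25 members, had 3 lower and 0 higher by edgeR (2 higher unadjusted, 0 by DESeq2 or permutation). MLTR14_dup5070 had 0 to 10.8 in LOF (median 2.28) and 15.03 to 71.9 in CONTROL (median 39.5). No LOF embryo reached the lowest CONTROL embryo. It was lower, at -3.62 ± 0.72 (log2, SE, n = 9 and 9, edgeR, adjusted p = 0.00148), at -3.10 with TMM (adjusted p = 0.00618), and passed in all 30 alternatives tried.

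Of the rodent RMER repeats, RMER5 had 22 members, 5 lower and 0 higher by edgeR (also 0 unadjusted and by DESeq2 or permutation), with a median of -1.70 (-1.25 and 1 lower with TMM). RMER21 had 30 members with a median of 0.24 (0.81 with TMM). Its 1 lower call, RMER21A_dup494, had 0 reads in LOF and 31 reads in 7 CONTROL embryos, 0 to 11.7 normalized counts (median 2.83), at least 15.3-fold lower, and met the rule through CONTROL alone. RMER2 had 15 members, 0 lower (3 unadjusted, 0 by DESeq2 or permutation) and 1 higher by edgeR. RMER2_dup856 had 13 reads in 7 LOF embryos and 0 in CONTROL, at least 2.93-fold higher.

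RLTR30 had 3 lower of 20 members, RLTR14 2 of 30 (both with no read in LOF, and 0 by permutation), RLTR41 1 of 19, RLTR24 1 of 8 and RLTR23 0 of 6 by edgeR, which called 0 higher in these groups. The exact permutation test called 1 RLTR14 member higher and DESeq2 0. At an unadjusted p under 0.05, RLTR14 had 2 higher members, RLTR24 and RLTR30 had 1 each, and RLTR41 and RLTR23 had 0, as RLTR23 also had for lower. RLTR41B_dup7 had 3 reads in LOF and 45 in CONTROL (-4.16 ± 1.07, log2, SE).

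The group of MER, LTR-number and HERV names, formed by name alone, had 45 members in 18 families, all with MER or LTR-number names. By edgeR 0 were lower, with 6 at an unadjusted p under 0.05, while DESeq2 called 2 lower and the exact permutation test 1. The higher count was 1 by edgeR, and 4 with TMM. Of the abundant copies, MER34B-int_dup10 had 23.5 to 148 in LOF (median 69.0) and 25.2 to 98.0 in CONTROL (median 41.7). The groups overlapped, 6 of 9 LOF embryos were above the CONTROL median, and its fold change of 0.64 (adjusted p = 0.308) became 1.28 with TMM (adjusted p = 0.0145). MER34B-int_dup64 gave nearly the same counts in every embryo, with a largest difference of 3 reads, and the copies cannot be told apart. Among members with at least 10 reads, 7 pairs of 1 family agreed within 1 read or 10% in every embryo. They include RLTR48A_dup538 and dup541 (88 reads each) and RLTR4_MM-int_dup128 and dup212 (43 reads each).

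RodERV21-int, an internal region of a rodent retrovirus, had 15 members, of which edgeR called 2 lower and 1 higher, all with no read in 1 group, and the exact permutation test 0. DESeq2 called 0 and gave no adjusted p for 2 of these 3. For RodERV21-int_dup452 the change was 0.91 (log2, edgeR, adjusted p = 0.158), and 1.59 with TMM (adjusted p = 0.0130). RodERV21-int_dup1611 had 26 reads in 6 LOF embryos and 0 in CONTROL, at least 5.87-fold higher. MLTR73_dup714 had 20 reads in 5 LOF embryos and 0 in CONTROL, at least 4.51-fold higher. Both met the rule through LOF embryos alone.

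**Figure D4:**
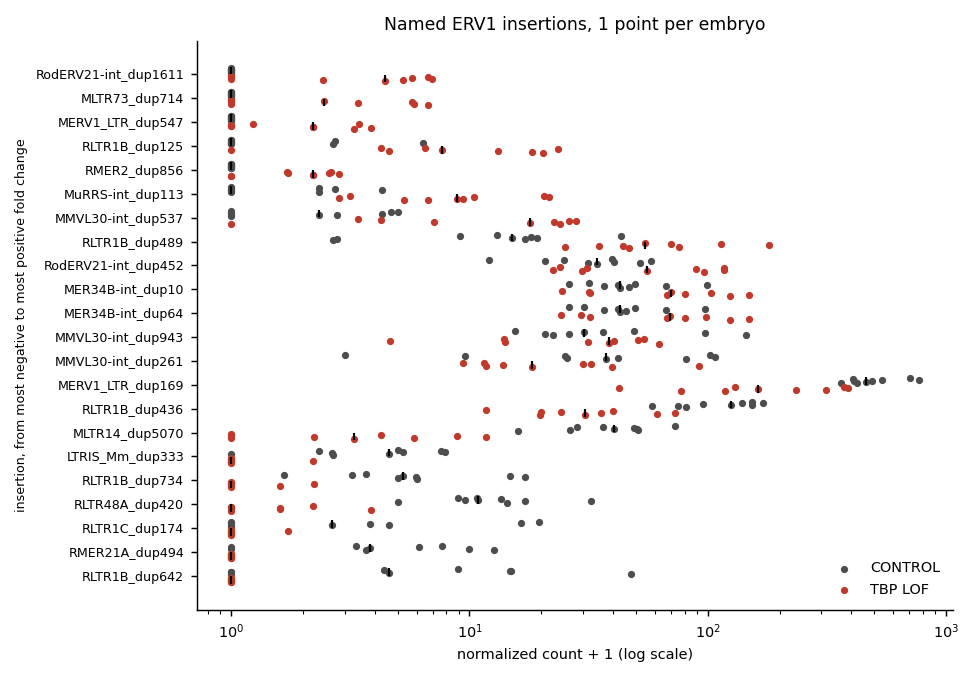
Normalized count + 1 (x axis, log scale, ERCC scaling) of the 22 named ERV1 insertions, 1 point per embryo (red, 9 TBP LOF; grey, 9 CONTROL) and a black tick at the median of each group. RLTR48A_dup420 and MLTR14_dup5070 show no overlap between groups, and RLTR1B_dup489 and MuRRS-int_dup113 lie higher in LOF embryos.

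Counted by family, with all copies of a family together, 98 ERV1 families were tested, of which 19 were lower, 0 were higher and 79 did not pass (edgeR, adjusted over 19357 genes and TE families). This was 19.4% lower, beside 29.7% of all genes and TE families and 28.7% of 909 TE families. Higher were 1.34% of all genes and TE families and 0.11% of TE families. DESeq2 called 0 higher as well, and 0 had a log2 fold change above 0 with an unadjusted p under 0.05. The median over ERV1 families was -0.69, and 0.05 with TMM, where 3 families were lower and 4 higher, beside 12.7% and 12.8% of all genes and TE families (25.5% in all). Without LOF 7 and LOF 11, 10 of the same 98 families were lower and 1 higher, beside 24.6% and 2.04% of all features (26.6% in all).

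Of the 29 named families, 8 were lower. MERV1_LTR had 55.9 to 426 in LOF (median 163) and 388 to 811 in CONTROL (median 501). All 9 LOF embryos were below the CONTROL median, and its log2 fold change was -1.28 ± 0.32 (SE, n = 9 and 9, edgeR, adjusted p = 0.00115), or -0.46 with TMM (adjusted p = 0.168). RMER5 (-1.08, adjusted p = 0.00702), MLTR14 (-1.04, adjusted p = 0.00710), LTRIS4 (-2.55, adjusted p = 0.0107), LTRIS_Mm (-1.60, adjusted p = 0.0221), RLTR4_MM-int (-0.96, adjusted p = 0.0273), RLTR1B (-0.78, adjusted p = 0.0324) and RLTR6_Mm (-0.84, adjusted p = 0.0497) were the others by edgeR. None of the 8 passed with TMM, and RLTR1B then turned to 0.06. With Y-linked reads as a covariate, RMER5 (adjusted p = 0.0521) and RLTR4_MM-int (adjusted p = 0.103) did not pass. RLTR6_Mm passed in 10 of 30 alternatives, RLTR1B in 17 and RLTR4_MM-int in 18, and the others in 22 to 28. Leaving out 1 embryo ended the call of RLTR1B for LOF 1, 7, 10 or 11 or CONTROL 1 or 4, that of RLTR4_MM-int for LOF 7 or 11 or CONTROL 4, 5 or 10, that of LTRIS_Mm for CONTROL 6 or 10, and that of RLTR6_Mm for 12 of the 18. RLTR48A, chosen after its values were seen, had 10.3 to 82.0 in LOF (median 26.2) and 53.4 to 148 in CONTROL (median 93.4), a log2 fold change of -1.49 ± 0.34 (edgeR, adjusted p = 4.1e-04) and -0.65 with TMM (adjusted p = 0.0759).

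Other named families had values near 0 or did not pass. MMVL30-int, the internal region of VL30 and the ERV1 family with the most members, had 122 to 584 in LOF (median 370) and 314 to 814 in CONTROL (median 404), with -0.38 ± 0.30 (SE, adjusted p = 0.370), and 0.46 with TMM. MMERGLN-int, of GLN, was at -0.76 ± 0.32 (adjusted p = 0.0590), and 0.05 with TMM. MuRRS-int was at -0.04 (0.69 with TMM) and MER89 at 0.01 (0.73 with TMM). With TMM the higher families were MER34B-int (1.46, adjusted p = 1.6e-04), RodERV21-int (1.02, adjusted p = 0.00254), RMER21B (0.87, adjusted p = 0.0107) and MuRRS4-int (0.67, adjusted p = 0.0147), of which MuRRS4-int was at -0.11 with ERCC scaling. The lowest LOF embryo was LOF 11 in 18 of the 29 families and LOF 7 in 5, the embryos with the highest ERCC shares. Where several LOF embryos stood at 0 (LTRIS4, LTRIS4A, LTRIS4B and MURVY-int), the first by number was counted. LOF 11 was among those at 0 in LTRIS4 and in LTRIS4B, which was counted for LOF 7. The lowest CONTROL embryo was CONTROL 9 in 13, and it was also among those at 0 in RLTR6C_Mm.

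**Figure D5:**
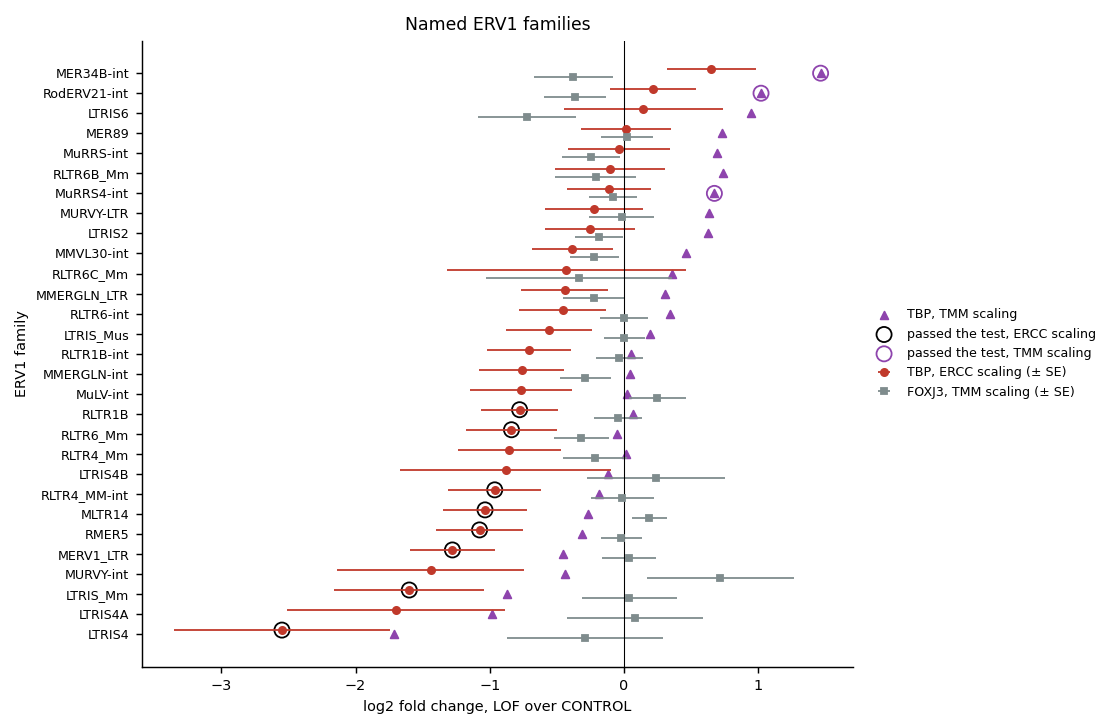
Log2 fold change, LOF over CONTROL (x axis), of the 29 named ERV1 families, in TBP embryos with ERCC scaling (red, bars are SE) and TMM scaling (purple), and in FOXJ3 embryos with TMM scaling (grey, bars are SE). Circled points passed the test, 8 lower with ERCC scaling and 3 higher with TMM. TMM values lie to the right of ERCC values in every family, and 15 families change sign.

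In FOXJ3 LOF embryos, no ERV1 family passed (99 tested by edgeR with TMM and library batch as covariate, smallest adjusted p = 0.783), beside 0.0102% of all genes and TE families. An unadjusted p under 0.05 was found for 8 families, 5 lower and 3 higher, and DESeq2 called 0 as well. The median log2 fold change was -0.08, with a range of -1.63 to 1.71. The ERV1 share of reads was 0.133% to 0.251% in FOXJ3 LOF (median 0.183%) and 0.150% to 0.239% in its CONTROL embryos (median 0.207%). TBP and FOXJ3 embryos were scaled in different ways, and the difference between the experiments was not tested.

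Of 11 host genes known to silence ERV1 elements, 4 were lower, 0 were higher and 7 did not pass, beside 21.6% of all genes called (21% lower and 0.575% higher). Trim28, the corepressor that KRAB zinc finger proteins recruit, was lower, at -1.28 (edgeR, adjusted p = 0.0126). Hells, a chromatin remodeler (-1.28, adjusted p = 0.0198), Dnmt1, the maintenance DNA methyltransferase (-1.26, adjusted p = 0.0174), and Chaf1b, a subunit of chromatin assembly factor 1 (-2.42, adjusted p = 0.00317), were also lower. With TMM only Chaf1b stayed lower, and Resf1, a partner of Setdb1, was higher (0.89, adjusted p = 0.0235, against 0.23 with ERCC scaling). Setdb1, Zfp809, Atf7ip, Morc3, Uhrf1 and Chaf1a were the others that passed under neither scaling. The restriction factors Apobec3 and Fv1, the 5 receptors of gammaretroviruses (Slc7a1, Xpr1, Slc20a1, Slc20a2 and Slc1a5) and Syna, a captured envelope gene, did not pass either, and Synb had too few reads to be tested.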

How the data were processed

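Late 2-cell embryos were profiled one library per embryo with Smart-seq+5′. The authors trimmed reads with Trimmomatic after FASTQC, mapped 5′ reads with STAR 2.7.11a to GRCm38 with the mCherry-Trim21 construct added and the endogenous Trim21 masked, and counted with TEcount and TElocal on gencode M20 and RepeatMasker. The deposited values are expected counts (estimated counts for TEs), all whole numbers, without normalization. The sources used here do not give how reads that map to several copies were shared out, or whether strand was used, so that values of near-identical copies are uncertain, as are those of copies within genes.

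Embryos needed 500000 counted reads, 1000 genes, at most 10% mitochondrial and 15% ERCC reads. Features with a read in at least 25% of embryos were tested. Size factors came from 42 ERCC transcripts (FOXJ3: TMM, library batch as covariate). The test was edgeR 4.0.16 (quasi-likelihood) with Benjamini-Hochberg adjustment and a threshold of 0.05, in R 4.3.3; the authors used DESeq2. Standard errors were derived from the F statistic. In the family tables, 42 subfamily rows were added to their families. Folds against a group at 0 use 3 reads for that group. The exact permutation test of log2(normalized count + 1) ran over 48620 splits of the embryos. The test was tried on simulated data, in which only features with higher mean counts were changed, so that recovery of thinly read members was not examined. Alternatives were TMM, DESeq2 1.42.0, its size factors, other filters, all 19 embryos, a replicate block, single embryos left out, and, chosen after seeing the data, Y-linked reads as a covariate, at most 6% ERCC reads (with the same or a new filter), the permutation test and the embryos of the block fit without the block. Python 3.11.15 made the tables.

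The insertions named are the 8 lower and 8 higher with the smallest adjusted p and the 8 most abundant. The families named are the 12 with the most members, the 8 with the highest mean normalized count, and all of VL30, MLV, GLN, MuRRS with LTRIS, and MURVY that have a member. Any other name was chosen after its values were seen. The members and lists were chosen with earlier results of these data known. Labels do not say whether embryos came from separate females, or which independent experiment each came from. The main tests take account of neither, so p-values measure the spread between these embryos.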

Additional observations from a re-analysis of the deposited data

Results flagged for a closer look

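The named insertions and families and the sums over all members were examined in LOF and in CONTROL embryos, 110 groups of 9 embryos. In 15 of these groups the gap from the highest embryo to the next was larger than Dixon's 95% criterion allows. Chance passes it in about 1 in 20 groups of normal values, a rate that does not hold for thin counts, and groups with a single embryo above 0 (LTRIS_Mm_dup333 and RLTR1C_dup174 in LOF) pass by construction. No explanation was tested for any of them.

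Several of these highest values were in LOF 8, which held 23.6 normalized counts of LTRIS_Mm (next LOF embryo 11.5), 449 of MER89 (next 230), 56.7 of MURVY-LTR (next 32.3) and 140.1 of MuRRS-int (next 52.0). LOF 5 held 91.0 of MMVL30-int_dup261 (next 38.7), and LOF 6 held 7.18 of LTRIS4A (next 2.43).

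For thinly read insertions, the highest LOF value stood on 1 to 2 reads. These were 1.196 for LTRIS_Mm_dup333 in LOF 6, 0.726 for RLTR1C_dup174 in LOF 9, 1.22 for RLTR1B_dup734 in LOF 7 and 2.88 for RLTR48A_dup420 in LOF 2.

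Among CONTROL embryos, CONTROL 1 held 46.8 of RLTR1B_dup642 (next 13.97), CONTROL 3 held 5.37 of RLTR1B_dup125 (next 1.72) and CONTROL 9 held 42.0 of RLTR1B_dup489 (next 18.1). CONTROL 4 held 31.3 of RLTR48A_dup420 (next 16.1) and 26.4 of MURVY-int (next 9.32).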

How the results depend on the processing

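The number of lower and higher insertions, 52 and 14, became 25 and 22 with TMM, 20 and 28 with DESeq2's size factors, 38 and 4 with DESeq2's test (no adjusted p for 22 of the 66 calls), 100 and 15 without the filter on low counts, 26 and 7 with the exact permutation test, 21 and 6 with Y-linked reads as a covariate and 27 and 12 with at most 6% ERCC reads (without LOF 7 and 11). With the filter applied anew to those 16 embryos, which changes the features tested too, it was 19 and 13. Leaving out single embryos, with the filter applied anew, gave 36 to 58 lower and 7 to 15 higher, and the higher calls moved by over 1.5 times without LOF 1, 8 or 9 or CONTROL 8. For families, 19 lower and 0 higher became 3 and 4 with TMM, 3 and 5 with DESeq2's size factors and 10 and 1 with at most 6% ERCC reads (9 and 1 with the filter applied anew), and 2 were higher without the filter. Leaving out single embryos gave 13 to 24 lower and 0 higher. Shares of all features are not given here for DESeq2's size factors, the fits without the filter or with a new one, and single embryos left out.

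For 7 replicate numbers shared by the groups, correlations of deviations were between -0.05 and 0.13. Only number 9 correlated best with its own, and in the others the own number ranked 2 to 6 among the CONTROL embryos. These values cannot tell whether embryos were collected together. With the replicate block, 11 insertions were lower and 4 higher, and 10 families lower and 1 higher. The same embryos without the block gave 9 and 7 insertions, and 6 and 1 families. Shares of all features are not given here for these fits either. With the block, LTRIS4B turned to 0.54, MER89 to -0.0598, MuRRS-int to 0.13, MuRRS4-int to 0.0830, RLTR6B_Mm to 0.11 and RLTR6C_Mm to 0.86, and without it in these embryos LTRIS4B was at 0.28, MuRRS-int at 0.23, MuRRS4-int at 0.0901 and RLTR6B_Mm at 0.10.

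Log2 fold changes that turned with TMM and with DESeq2's size factors, in this order, were those of MMVL30-int_dup261 (0.0303, 0.11), MMVL30-int_dup943 (0.15, 0.31), LTRIS2 (0.62, 0.65), LTRIS_Mus (0.19, 0.19), MMERGLN-int (0.0464, 0.0674), MMERGLN_LTR (0.30, 0.32), MMVL30-int (0.46, 0.50), MURVY-LTR (0.63, 0.66), MuLV-int (0.0247, 0.0490), MuRRS-int (0.69, 0.72), MuRRS4-int (0.67, 0.70), RLTR1B-int (0.0514, 0.0712), RLTR1B (0.0635, 0.0777), RLTR4_Mm (0.0156, 0.0350), RLTR6-int (0.34, 0.37), RLTR6B_Mm (0.74, 0.78) and RLTR6C_Mm (0.36, 0.38). Others that turned were LTRIS2 (0.00413) and MER89 (-0.0728) with Y-linked reads as a covariate, MuRRS-int with all 19 embryos (0.0316) and in sums of insertion counts (0.0855), and, with at most 6% ERCC reads under either filter, MuRRS-int (0.25), MuRRS4-int (0.12) and RLTR6B_Mm (0.10). With single embryos left out, the sign turned within the ranges -0.21 to 0.38 for LTRIS6, -0.34 to 0.15 for MER89, -0.51 to 0.11 for MuRRS-int, -0.23 to 0.0171 for MuRRS4-int, -0.35 to 0.0559 for RLTR6B_Mm and -0.83 to 0.31 for RLTR6C_Mm. None of these values had passed the test but RLTR1B, and the cause was not tested.

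Each of the 22 named insertions kept its side of the threshold with single embryos left out, in 391 of 391 fits that could be made. MLTR73_dup714 fell below the filter without LOF 1, 5, 6, 8 or 9, its only embryos with reads, so these fits are not counted. Many of the 22 were chosen by their adjusted p in the same embryos. The mean number of members detected was 332 in LOF and 360 in CONTROL, and 290 and 311 when thinned to equal reads. The thinned medians were close, at 301 and 307, and the highest thinned value was in LOF (360, against 342 in CONTROL). For all ERV1 insertions the means were 690 and 822, and 570 and 662 when thinned. FOXJ3 families gave 0 calls under every alternative run.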
